A study of Mus musculus with 9 samples.

Results

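NF-κB is a family of transcription factors that B cells keep in the cytoplasm and release when surface receptors are engaged. The genes described here encode its subunits (Nfkb1, Nfkb2, Rel, Rela and Relb), the classical IκB inhibitors (Nfkbia, Nfkbib and Nfkbie) and 2 nuclear cofactors (Nfkbiz and Bcl3). They were chosen by name from the known family, as the probe sets annotated with that symbol alone, and the brightest probe set stood for a gene. Of the 10 genes, 9 had such a probe set, 1 each, and Nfkb1 was not analysed here. All 9 passed the filter on dim genes, out of 12170 genes tested and 22180 genes with a probe set of a single symbol.

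Follicular B cells, the recirculating mature B cells of the spleen, had been sorted from mice aged 6 to 12 weeks. The genotypes were Igh[epsilon]/[epsilon] VJk5 (Ighε/ε below), Igh[gamma]1/[gamma]1 VJk5 (Ighγ1/γ1) and Ighwt VJk5 (Ighwt, the wild-type locus), with 3 arrays each, and the series asks how the heavy chain isotype and the dose of B cell receptor bear on B cell fate. ε names the heavy chain of IgE and γ1 that of IgG1. VJk5 stands in all 3 labels, so the Ighwt mice carry it as well. The labels do not explain it, nor how the alleles were made or which cells express them. They call the mice polyclonal and the replicates independent, without saying that each array was a separate animal, so a p-value here measures only how these samples spread, which may be technical. In sorted bulk cells, fewer cells of a type and less RNA per cell cannot be told apart.

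The subunits bind DNA as dimers. In the canonical pathway, set off by the B cell receptor, CD40 or Toll-like receptors, a kinase complex marks IκB proteins for destruction and frees dimers that hold Rela or Rel. In the alternative pathway, set off by BAFF receptor or CD40, the Nfkb2 product p100 is cut to p52, which pairs with Relb. Several family genes, Nfkbia and Nfkb2 among them, are themselves textbook targets of NF-κB, which makes a feedback loop.

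The sites NF-κB is known to bind, κB sites, are short DNA words that begin with a run of G and end with a run of C. RefSeq promoter windows of the GRCm38.p6 build, which run from 250 bases before to 50 bases after an annotated start, were found for 7 of the 9 genes measured, 9 windows in all. The κB consensus of 10 letters runs from G and a purine through any bases to pyrimidines and C. Read on both strands, it occurred in 7 of these 9 windows, and in 8.46% of all 32851 windows. The 7 windows belong to Nfkb2, with 3 windows of which a pair overlap, and to Rel, Nfkbia, Nfkbie and Bcl3. Neighbouring matches on opposite strands can share letters and are then capitalised as 1 run. The single word GGGACTTTCC was taken from an Nfkb2 window, so its presence there was fixed by that choice. It occurred in 0.155% of all windows and, among these genes, only at a single site that both overlapping Nfkb2 windows hold. A match describes the letters only.

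The upstream 250 bases are shown for the 3 genes that both passed the test between Ighε/ε and Ighwt cells, as described next, and held a match upstream of the start. They are written 5′ to 3′ on the gene's strand, with the matches in capitals. The Nfkb2 window is chr19:46304487-46304736 on the plus strand, the Nfkbia window chr12:55492648-55492897 on the minus strand and the Nfkbie window chr17:45555450-45555699 on the plus strand.
Nfkb2: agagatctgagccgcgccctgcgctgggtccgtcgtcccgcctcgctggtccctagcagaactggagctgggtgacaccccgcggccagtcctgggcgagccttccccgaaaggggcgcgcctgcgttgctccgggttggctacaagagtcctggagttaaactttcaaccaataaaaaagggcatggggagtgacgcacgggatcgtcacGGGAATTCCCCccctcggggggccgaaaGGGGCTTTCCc
Nfkbia: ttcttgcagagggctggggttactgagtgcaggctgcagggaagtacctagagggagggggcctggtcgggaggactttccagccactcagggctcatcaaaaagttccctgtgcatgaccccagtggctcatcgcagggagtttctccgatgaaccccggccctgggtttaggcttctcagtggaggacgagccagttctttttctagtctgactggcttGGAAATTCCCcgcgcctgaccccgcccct
Nfkbie: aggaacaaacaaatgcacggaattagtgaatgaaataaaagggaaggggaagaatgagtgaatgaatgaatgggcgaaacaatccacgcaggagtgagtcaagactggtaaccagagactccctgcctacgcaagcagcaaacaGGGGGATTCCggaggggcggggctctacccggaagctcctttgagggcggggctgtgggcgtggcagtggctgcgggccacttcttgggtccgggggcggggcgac

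A few further sites are given with a few bases on each side, since they lie near another Nfkb2 start, just after the Bcl3 start, or in front of Rel, the gene that differed in sign from the rest.
Nfkb2, other start sites: ttttcGGGACTTTCCtaagc
Bcl3: ggcagGGGAAGTCCCgctgc
Rel: gcagcGGGAAATCCCCcccc

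In Ighε/ε cells, set against Ighwt cells to ask what the ε allele changes, 4 of the 9 genes rose and 0 fell: the subunit gene Nfkb2, the inhibitor genes Nfkbia and Nfkbie, and the nuclear cofactor gene Bcl3. Over all 12170 genes, 2.33% rose in this comparison at the same limma adjusted p under 0.05, and 4.02% fell. The median log2 difference of the 9 genes was 0.68, against -0.01 over all genes tested. For 8 of the 9 the difference was positive, as it was for 48.3% of all genes, and Rel had the negative one. All 9 had an unadjusted p under 0.05, which 24.8% of all genes had. The plot of signals by array shows the 9 genes side by side.

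**Figure D1:**
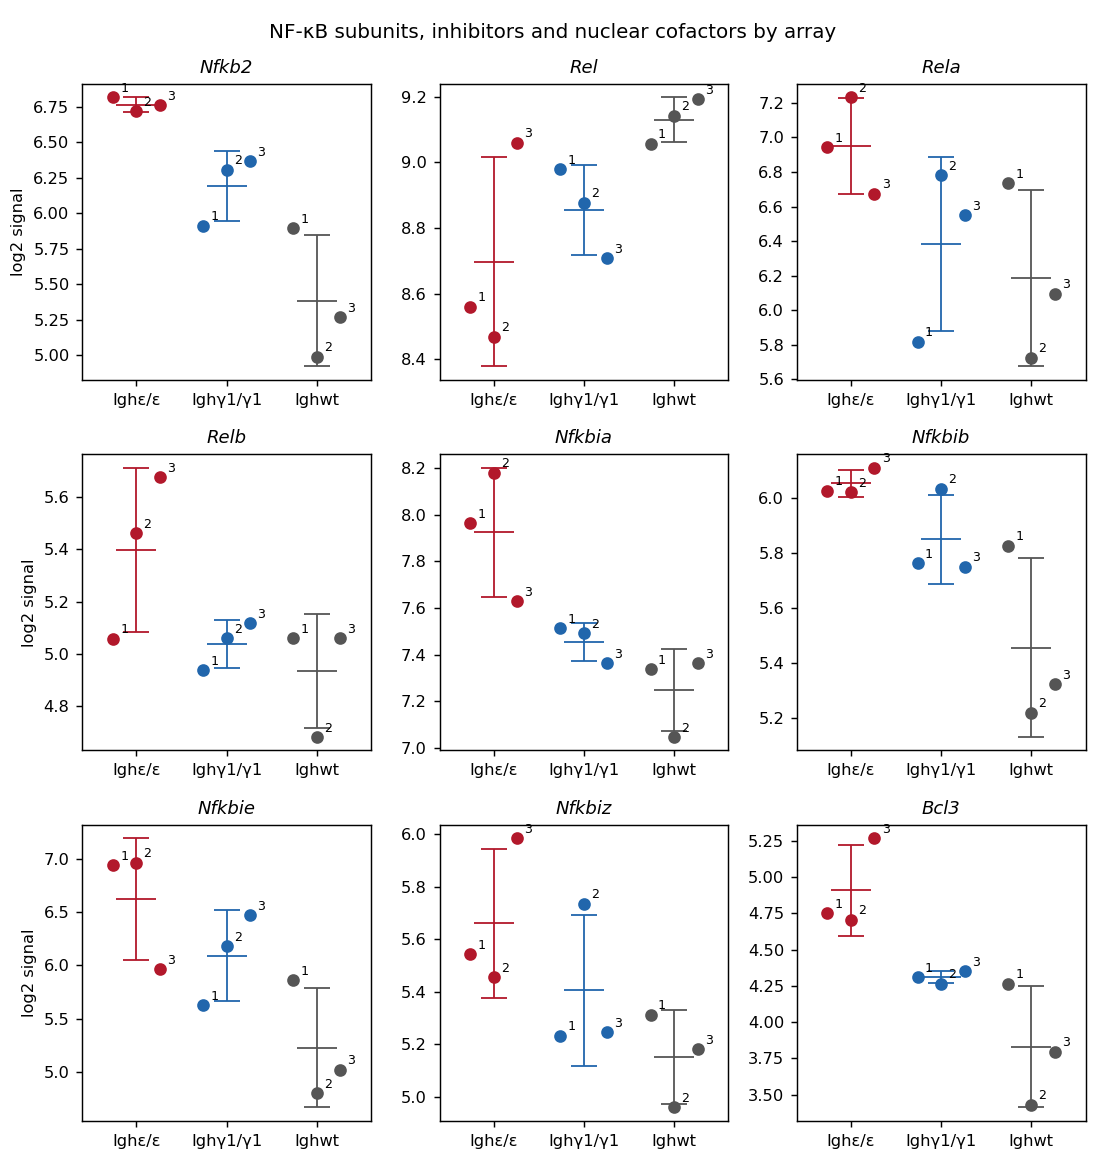
Log2 signal (y axis, each panel with its own range) of 9 NF-κB genes on the Ighε/ε, Ighγ1/γ1 and Ighwt arrays, 3 a group. Points are arrays numbered by replicate, and the long dash with bars is the mean ± SD. For Nfkb2 the Ighε/ε arrays lie between 6.72 and 6.82, above every Ighγ1/γ1 and Ighwt array, and Rel is the panel in which the Ighwt mean of 9.13 is the highest.

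Nfkb2 encodes p100, the precursor of p52, which in its uncut form also holds other subunits in the cytoplasm. Its log2 signal was 6.82, 6.72 and 6.76 on Ighε/ε arrays 1 to 3, 5.91, 6.31 and 6.37 on the Ighγ1/γ1 arrays, and 5.89, 4.99 and 5.27 on the Ighwt arrays. The Ighε/ε values lay close together and above those of both other genotypes, the Ighγ1/γ1 values lay above all Ighwt values, and Ighwt replicate 1 lay next to Ighγ1/γ1 replicate 1. Nfkb2 was higher in Ighε/ε than in Ighwt cells by 1.38 on the log2 scale (SE 0.22, 95% interval 0.88 to 1.88), which is 2.60-fold, with a limma adjusted p of 0.00899. The call was kept in all 20 alternatives of processing and left-out arrays, with differences of 1.18 to 1.63. By limma's F test over the 3 genotypes it was also the single gene of the 9 that passed (adjusted p = 0.0212), where 4.11% of all genes passed. That F test call was lost without Ighε/ε replicate 1 or 3 or Ighwt replicate 2 or 3, when 0 of the 9 passed.

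Rel encodes c-Rel, a subunit found mainly in blood cells that B cells need to divide. It read 8.56, 8.47 and 9.06 in Ighε/ε cells, 8.98, 8.88 and 8.71 in Ighγ1/γ1 cells and 9.06, 9.14 and 9.19 in Ighwt cells. Ighε/ε replicate 3 lay within the Ighwt range and the other Ighε/ε arrays below it. The difference between Ighε/ε and Ighwt was -0.43 (SE 0.17, limma adjusted p = 0.156), and without Ighε/ε replicate 3 it was -0.62 with an adjusted p of 0.0474. It was negative in every alternative, between -0.62 and -0.30.

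Rela encodes p65, the subunit with the strong activation domain, and Relb the partner of p52. Rela read 6.95, 7.23 and 6.67 in Ighε/ε cells, 5.82, 6.78 and 6.55 in Ighγ1/γ1 cells and 6.74, 5.73 and 6.09 in Ighwt cells. Relb read 5.06, 5.46 and 5.68 in Ighε/ε cells, 4.94, 5.06 and 5.12 in Ighγ1/γ1 cells and 5.06, 4.68 and 5.06 in Ighwt cells, and 3 of its arrays held the same value of 5.06. The groups overlapped for both genes. The difference between Ighε/ε and Ighwt was 0.77 for Rela (SE 0.30, limma adjusted p = 0.155) and 0.47 for Relb (SE 0.18, adjusted p = 0.154).

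Among the inhibitors, Nfkbia encodes IκBα, the inhibitor that is destroyed and remade fastest after a stimulus. Its log2 signal was 7.96, 8.18 and 7.63 in Ighε/ε cells, 7.51, 7.49 and 7.36 in Ighγ1/γ1 cells and 7.34, 7.05 and 7.36 in Ighwt cells. Every Ighε/ε array lay above every other array, and the Ighγ1/γ1 and Ighwt ranges overlapped. The difference between Ighε/ε and Ighwt was 0.68 (SE 0.17, 1.60-fold), with a limma adjusted p of 0.0438.

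Nfkbie encodes IκBε, an inhibitor known for holding Rel and Rela dimers in B cells. It read 6.94, 6.96 and 5.97 in Ighε/ε cells, 5.63, 6.18 and 6.47 in Ighγ1/γ1 cells and 5.86, 4.80 and 5.02 in Ighwt cells. Ighε/ε replicate 3 lay below 2 of the Ighγ1/γ1 arrays and only just above Ighwt replicate 1, whose value was the highest of its group. The difference between Ighε/ε and Ighwt was 1.40 (SE 0.35, 2.63-fold, limma adjusted p = 0.0440). Nfkbib, which encodes the slower inhibitor IκBβ, read 6.03, 6.02 and 6.11 in Ighε/ε cells, 5.76, 6.03 and 5.75 in Ighγ1/γ1 cells and 5.83, 5.22 and 5.32 in Ighwt cells. Its Ighε/ε arrays were nearly level and above all Ighwt arrays, and its difference of 0.60 (SE 0.18) missed the threshold with an adjusted p of 0.0699, or passed at 0.78 without Ighwt replicate 1 (adjusted p = 0.0322).

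Bcl3 encodes a nuclear member of the IκB family that binds p50 and p52 dimers on DNA. It read 4.75, 4.71 and 5.27 in Ighε/ε cells, 4.31, 4.27 and 4.35 in Ighγ1/γ1 cells and 4.27, 3.43 and 3.80 in Ighwt cells. The Ighε/ε arrays lay above all others. Bcl3 was higher in Ighε/ε than in Ighwt cells by 1.08 (SE 0.22, limma adjusted p = 0.0220), and no fold is given, since Ighwt replicate 2 read below its array median and the array medians lay between 3.53 and 3.69. Nfkbiz encodes IκBζ, a nuclear cofactor for late inflammatory genes such as Il6. It read 5.54, 5.46 and 5.99 in Ighε/ε cells, 5.23, 5.74 and 5.25 in Ighγ1/γ1 cells and 5.31, 4.96 and 5.18 in Ighwt cells, a difference of 0.51 between Ighε/ε and Ighwt (SE 0.20, adjusted p = 0.146). Every Ighε/ε value of Nfkbiz lay above every Ighwt value.

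For 6 of the 9 genes all Ighε/ε arrays lay above all Ighwt arrays (Nfkb2, Nfkbia, Nfkbib, Nfkbie, Nfkbiz and Bcl3), where 11.8% of all genes did so, and for 0 of the 9 they all lay below, where 16.6% did. The calls of Nfkbia, Nfkbie and Bcl3 lay near the threshold. Over all alternatives run, their differences kept to 0.55 to 0.83 for Nfkbia, 1.18 to 1.73 for Nfkbie and 0.88 to 1.30 for Bcl3, while their adjusted p fell on both sides of it. Nfkbia had a limma adjusted p of 0.0930 and 0.0980 without Ighε/ε replicates 1 and 2, of 0.0541, 0.0654 and 0.0610 without Ighγ1/γ1 replicates 1, 2 and 3, and of 0.0791, 0.159 and 0.0966 without Ighwt replicates 1, 2 and 3. Nfkbie had 0.114 and 0.105 without Ighε/ε replicates 1 and 2, 0.0683 and 0.0577 without Ighγ1/γ1 replicates 2 and 3, and 0.166 and 0.136 without Ighwt replicates 2 and 3. Bcl3 had 0.0528 without Ighε/ε replicate 3 and 0.0854 and 0.0811 without Ighwt replicates 2 and 3. With only the 6 Ighε/ε and Ighwt arrays in the fit, Nfkb2 alone passed, where 3.48% of all genes did, against 6.34% in the main fit. Nfkbia also missed the threshold under median centring (adjusted p = 0.0516), and both Nfkbia and Nfkbie with no filter (0.0595 and 0.0716) or a covariate for low Xist (0.0719 and 0.0639). Nfkbia, Nfkbie and Bcl3 missed it when the 2 arrays of low Xist were left out (0.104, 0.108 and 0.0546), while Nfkbib passed under quantile normalization, at 0.69 (0.0364), and with the filter at percentile 75 (0.0499). The differences of all 9 genes kept their sign in all of these settings, and the plot of adjusted p shows each setting.

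**Figure D2:**
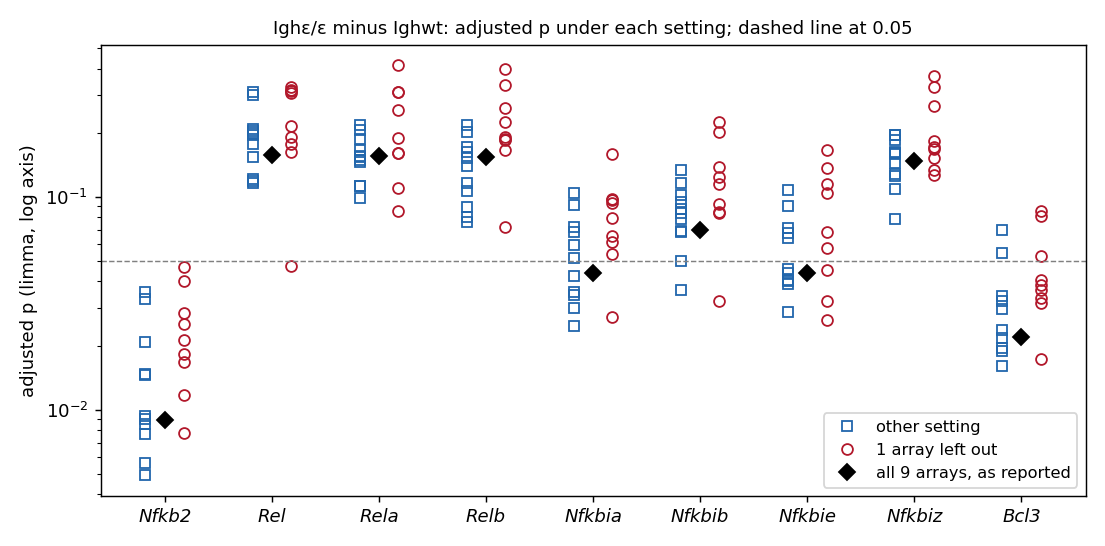
Adjusted p of the difference between Ighε/ε and Ighwt (limma, log axis) for 9 genes. The black diamond is the fit of all 9 arrays, blue squares are other settings and red circles have 1 array left out, with a dashed line at 0.05. All points of Nfkb2 lie below the line, with a highest adjusted p of 0.0468, while the points of Nfkbia and Nfkbie fall on both sides.

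Ighγ1/γ1 cells were set against Ighwt cells to ask the same of the γ1 allele. Of the 9 genes 0 passed in limma at an adjusted p under 0.05, and 0.0411% of all genes did. At an unadjusted p under 0.05 there were 3, where 6.82% of all genes had one: Nfkb2 with a difference of 0.81 (SE 0.22, 95% interval 0.31 to 1.31, adjusted p = 0.498), Nfkbie with 0.86 (SE 0.35, interval 0.09 to 1.64, adjusted p = 0.698) and Nfkbib with 0.39 (SE 0.18, adjusted p = 0.727). Nfkb2 was the single gene whose Ighγ1/γ1 arrays all lay above the Ighwt arrays, where 4.68% of all genes did so, and Rel the single one whose Ighγ1/γ1 arrays all lay below, where 7.71% did. The Rel difference was -0.28 (SE 0.17, adjusted p = 0.791). The median difference of the 9 genes was 0.25, against -0.02 over all genes, and the smallest in size were those of Relb, 0.10, and Rela, 0.20. The contrasts of Ighε/ε and of Ighγ1/γ1 share the Ighwt arrays.

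Between Ighε/ε and Ighγ1/γ1 cells, compared to ask whether the alleles differ from each other, 0 of the 9 genes passed in limma, and 2.66% of all genes did. At an unadjusted p under 0.05 there were again 3, where 19.9% of all genes had one: Nfkb2 with 0.57 (SE 0.22, 95% interval 0.07 to 1.07, adjusted p = 0.195), Nfkbia with 0.47 (SE 0.17, interval 0.09 to 0.84, adjusted p = 0.162) and Bcl3 with 0.60 (SE 0.22, interval 0.10 to 1.10, adjusted p = 0.174). For these 3 all Ighε/ε arrays lay above all Ighγ1/γ1 arrays, where 9.86% of all genes did so. Nfkbie, whose difference from Ighwt was the largest in both genotypes, had 0.53 between them with an interval of -0.25 to 1.31. The effects of the alleles on these genes were thus not shown to differ, nor to be alike.

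The Ighγ1/γ1 mean lay between the Ighε/ε and Ighwt means for all 9 genes, as it did for 45.4% of all genes. For 8 of them the order ran Ighε/ε, Ighγ1/γ1, Ighwt downwards, as in 21% of all genes, and for Rel it ran the other way. The steps between neighbours in that order did not pass the test for any of the 9.

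**Figure D3:**
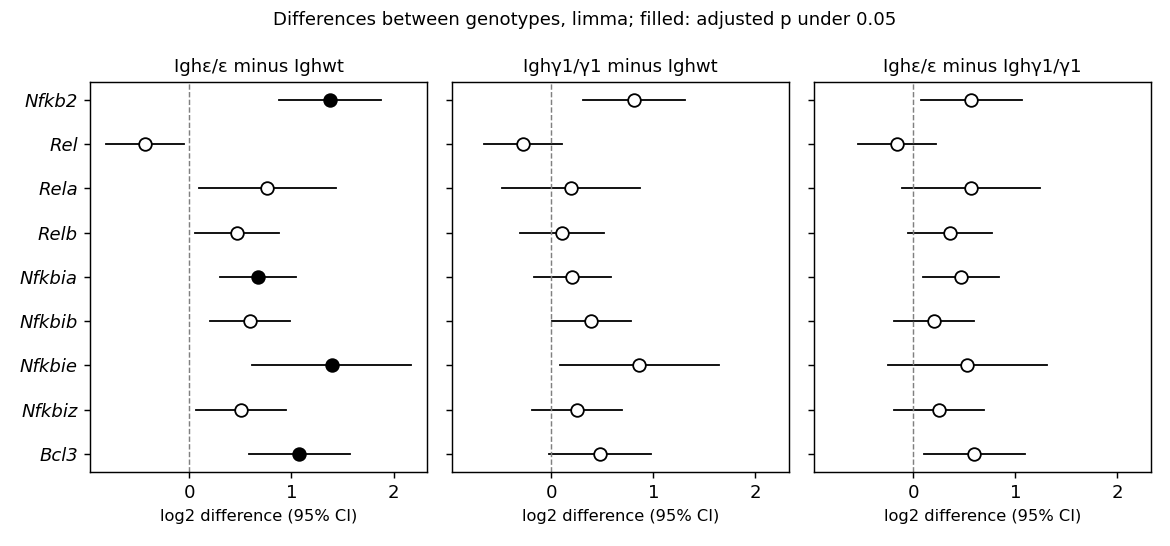
Log2 differences with 95% intervals (x axis) for 9 genes (rows) in the 3 contrasts of Ighε/ε minus Ighwt, Ighγ1/γ1 minus Ighwt and Ighε/ε minus Ighγ1/γ1. Filled circles passed an adjusted p under 0.05 in limma: 4 in the first contrast and 0 in the others, and Rel lies left of 0 in each.

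Within Ighwt the same arrays were the highest or lowest for most of the 9 genes, so the differences of these genes are not independent. Ighwt replicate 1 was the highest Ighwt array for 7 of them, against 43.2% of all genes, and Ighwt replicate 2 the lowest for 8, against 41.4%. Ighε/ε replicate 1 was the highest Ighε/ε array for 1 gene of the 9, against 32.4% of all genes, and Ighε/ε replicate 3 for 5, against 36.9%. Ighγ1/γ1 replicate 1 was the lowest Ighγ1/γ1 array for 5 of the 9, a share near the 45.1% of all genes.

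Other transcripts moved with the Ighε/ε label. Macrophage and monocyte markers, 10 of 14 tested, had 0 genes past the threshold, but their summed linear signal was 2031 on Ighε/ε replicate 1 and 387 and 256 on the other Ighε/ε arrays, against 181 to 209 on the Ighγ1/γ1 arrays and 181 to 209 on the Ighwt arrays. Without Ighε/ε replicate 1, 2 of the 9 NF-κB genes passed, Nfkb2 and Bcl3, where 4.31% of all genes did. The difference was then 0.66 for Nfkbia, against 0.68 with all arrays, and 1.24 for Nfkbie, against 1.40. The remaining Ighε/ε arrays still had macrophage sums above those of the other genotypes, so leaving out replicate 1 did not remove that marker difference. Of 12 early response and heat shock genes that sorting itself can switch on, 6 rose and 0 fell in Ighε/ε cells, with a summed signal of 1574 to 4477 in Ighε/ε, 638 to 2927 in Ighγ1/γ1 and 436 to 778 in Ighwt cells. Of 10 marginal zone B cell markers tested 4 rose and 0 fell, with sums of 1281 to 1459, 1169 to 1269 and 964 to 1068 in Ighε/ε, Ighγ1/γ1 and Ighwt cells. Those that rose were Dtx1, Asb2, Myof and Ptpn14. Cr2, Cd1d1, Cd9 and Notch2 differed by 0.21, -0.17, 0.07 and 0.16, and Cd36 and Mzb1 by 0.82 and 0.53, and did not pass. Of follicular B cell markers 0 of 9 tested rose and 4 fell past the threshold, with a median difference of -0.25. Their differences were mixed in sign, and Fcer2a, Cxcr5 and Fcrl1 had positive ones (0.54, 0.69 and 0.38) that did not pass. The sums were 2347 to 2864 in Ighε/ε, 2973 to 3522 in Ighγ1/γ1 and 2747 to 3277 in Ighwt cells, and overlapped between Ighε/ε and Ighwt. Over all genes tested, 2.33% rose and 4.02% fell in this comparison. The 9 general B cell markers with a probe set were all tested and 0 passed the threshold, but their sums of 6392 to 6913 in Ighε/ε cells lay above those of 4544 to 5927 in Ighwt cells, with 5569 to 6439 in Ighγ1/γ1 cells. A linear sum gives most weight to the brightest genes. Blk went the other way, at -0.60 (limma adjusted p = 0.0890), with all Ighε/ε arrays below all Ighwt arrays. The other genes of this list had positive differences, from 0.09 for Ms4a1 to 1.07 for Cd79a.

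Among the markers of other cells, 0 passed the threshold as well, where 2.33% of all genes rose and 4.02% fell. Some of their sums did not overlap between Ighε/ε and Ighwt. Plasma cell markers, 3 of 6 tested, summed to 187 to 258 in Ighε/ε, 135 to 161 in Ighγ1/γ1 and 145 to 175 in Ighwt cells. Dendritic cell markers, 3 of 6 tested, summed to 68.4 to 78.0 in Ighε/ε, 61.2 to 72.9 in Ighγ1/γ1 and 54.3 to 57.7 in Ighwt cells. In these lists all Ighε/ε arrays lay above all Ighwt arrays for Xbp1, a plasma cell transcription factor (difference 0.96, limma adjusted p = 0.0559), Irf4, a factor of activated B cells and plasma cells (0.39, 0.262), Flt3, a dendritic cell growth factor receptor (0.75, 0.0530), and Zbtb46, a dendritic cell transcription factor (0.25, 0.273). Of all genes tested, 11.8% had all Ighε/ε arrays above all Ighwt arrays. The other genes tested in the plasma and dendritic cell lists overlapped between these genotypes. The plasma cell marker Sdc1 was lower in Ighε/ε (-0.33, 0.276), and the dendritic cell marker Siglech differed by 0.24 (0.316). T cell markers summed to 78.9 to 98.3 in Ighε/ε, 65.8 to 78.2 in Ighγ1/γ1 and 66.8 to 72.7 in Ighwt cells, and the 1 of 8 that passed the filter, Lat, an adaptor of the T cell receptor, differed by 0.76 (adjusted p = 0.0728). Erythroid markers, 1 of 8 tested, summed to 25.0 to 26.1 in Ighε/ε, 18.3 to 24.7 in Ighγ1/γ1 and 22.9 to 23.2 in Ighwt cells. The sums of NK cell markers, 4 of 6 tested, and neutrophil markers, 1 of 7 tested, overlapped between all 3 genotypes. Xist read 5.25 and 4.53 on Ighε/ε and Ighγ1/γ1 replicates 1, against 10.4 to 10.8 on the other 7 arrays. The Y chromosome genes Eif2s3y (7.40 and 7.99), Kdm5d (5.90 and 6.08) and Uty (5.08 and 6.52) were highest on the same arrays. On the others they read 2.75 to 5.40, 2.22 to 4.50 and 2.68 to 3.61. No Ighwt array had low Xist, so this trait was unevenly spread over the genotypes. The labels do not give the sex. The part of these markers in the NF-κB results was not tested.

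The other genes of the pathway were taken from lists of receptors, kinases and adaptors, brakes and targets. Over all genes tested, 2.33% rose and 4.02% fell in Ighε/ε against Ighwt cells. Of 10 receptor genes tested, 1 rose and 0 fell. It was Tlr9, the receptor for CpG DNA, which was higher by 1.24 (SE 0.28, limma adjusted p = 0.0303) at 7.94, 8.39 and 8.51 in Ighε/ε cells, against 7.69, 6.74 and 6.70 in Ighwt cells. The median of the receptor list was 0.29. Cd79a, a signalling chain of the B cell receptor, differed by 1.07 (adjusted p = 0.0568), and Tnfrsf1b, which encodes TNF receptor 2, by 0.58 (SE 0.23, adjusted p = 0.156). Tnfrsf1b was dim, with 1 value of 3.83 shared by Ighε/ε replicate 3 and all Ighγ1/γ1 arrays, 4 arrays in all, and with 2 Ighwt arrays below their array medians. The BAFF receptor gene Tnfrsf13c and Cd40 differed by 0.39 (adjusted p = 0.354) and 0.06 (adjusted p = 0.908). Tlr9 missed the threshold without Ighε/ε replicate 2 or 3 (adjusted p = 0.0694 and 0.0780) or Ighwt replicate 2 or 3 (0.128 and 0.113), and Cd79a passed without Ighwt replicate 1, at 1.37 (0.0296). Tlr9 also missed it with only the 6 arrays compared (0.0743), and Cd79a passed with the filter at percentile 75 (0.0384) or the trended and robust variance (0.0451).

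Of 20 kinase and adaptor genes 0 rose and 1 fell, where 2.33% and 4.02% of all genes did so, with a median of -0.08. Birc2, which encodes cIAP1, a ubiquitin ligase that keeps the alternative pathway kinase NIK low, fell by 0.65 (SE 0.16, limma adjusted p = 0.0431). It missed the threshold without any of the arrays but Ighε/ε replicate 1 (adjusted p of 0.0926 and 0.0718 without Ighε/ε replicates 2 and 3, of 0.0534, 0.0576 and 0.0518 without the Ighγ1/γ1 arrays in turn, and of 0.0786, 0.147 and 0.121 without the Ighwt arrays in turn), as it did under quantile normalization (-0.47, adjusted p = 0.0937), with no filter (0.0567) and with only the 6 arrays compared (0.0743). Malt1, the protease of the complex that links the B cell receptor to the kinases, differed by -0.44 (adjusted p = 0.0627), and passed with the filter at percentile 75, the trended and robust variance or array weights (0.0475, 0.0364 and 0.0469). Rbck1, which encodes a part of the linear ubiquitin ligase, differed by 0.63 (adjusted p = 0.0805), or 0.71 and past the threshold under quantile normalization (0.0462). The kinase gene Ikbkb, and Map3k14, which encodes NIK, differed by -0.19 (adjusted p = 0.513) and -0.10 (adjusted p = 0.727).

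Of 12 genes that restrain the pathway 1 rose and 1 fell, where 2.33% and 4.02% of all genes did so, with a median of 0.03. Tax1bp1, which encodes an adaptor of the A20 ubiquitin editing complex, fell by 0.78 (SE 0.13, limma adjusted p = 0.0111), at 7.92, 8.11 and 8.07 in Ighε/ε cells, against 8.83, 8.88 and 8.74 in Ighwt cells. Zc3h12a, which encodes the RNase Regnase-1, rose by 0.83 (SE 0.21, adjusted p = 0.0475). Tnfaip3, the gene of A20 itself, differed by 1.01 (SE 0.33, adjusted p = 0.0898). Without Ighwt replicate 2 Tax1bp1 had an adjusted p of 0.0514. Zc3h12a missed the threshold without any of the arrays but Ighε/ε replicate 1, with adjusted p of 0.109 and 0.0970 without Ighε/ε replicates 2 and 3, of 0.0540, 0.0713 and 0.0589 without the Ighγ1/γ1 arrays in turn, and of 0.0695, 0.171 and 0.112 without the Ighwt arrays in turn. It also missed it under median centring (0.0517), with no filter (0.0714), with only the 6 arrays compared (0.0912) and with a covariate for low Xist (0.0601).

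Of 22 target genes, a list that leaves out the 9 genes above, 2 rose and 1 fell, with a median of 0.48. The shares of all genes that did so were 2.33% and 4.02%. Traf1, an adaptor of TNF receptors and a standard NF-κB target, read 6.11, 6.15 and 6.20 in Ighε/ε cells, 5.55, 6.15 and 6.38 in Ighγ1/γ1 cells and 4.82, 4.63 and 4.51 in Ighwt cells. All mutant arrays lay above all Ighwt arrays. Traf1 rose by 1.50 in Ighε/ε (SE 0.20, limma adjusted p = 0.00404), kept in all 20 alternatives, and differed by 1.37 in Ighγ1/γ1 (SE 0.20, adjusted p = 0.0957). Myc, a driver of growth, rose by 0.76 (SE 0.18, adjusted p = 0.0332). Cflar, which encodes the caspase 8 inhibitor FLIP, fell by 0.63 (SE 0.12, adjusted p = 0.0181).

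Cflar read 6.03, 6.10 and 6.08 in Ighε/ε cells, 6.70, 6.58 and 6.57 in Ighγ1/γ1 cells and 6.59, 6.72 and 6.77 in Ighwt cells. It was also the single pathway gene past the threshold between Ighε/ε and Ighγ1/γ1 cells, where 2.66% of all genes passed. Cflar fell there by 0.55 (SE 0.12, limma adjusted p = 0.0480). That call was lost with any 1 of the 9 arrays left out, at adjusted p of 0.0934, 0.0742 and 0.0796 without Ighε/ε replicates 1, 2 and 3, of 0.123, 0.0951 and 0.0953 without Ighγ1/γ1 replicates 1, 2 and 3, and of 0.0707, 0.0710 and 0.0788 without Ighwt replicates 1, 2 and 3. Against Ighwt, Cflar missed the threshold without Ighwt replicate 2 or 3 (adjusted p = 0.0710 and 0.0768). Myc missed it without Ighε/ε replicates 1, 2 or 3 (0.0720, 0.0627 and 0.0701) or Ighwt replicates 1, 2 or 3 (0.0635, 0.133 and 0.0826), and with a covariate for low Xist (0.0590) or only the arrays of high Xist (0.0809). The Cflar call between Ighε/ε and Ighγ1/γ1 was lost as well under quantile normalization (0.0667), median centring (0.0783), the trended and robust variance (0.0518), array weights (0.0736), the 6 arrays compared (0.119) and the arrays of high Xist (0.164). In Ighγ1/γ1 against Ighwt cells 0 genes of the 4 lists passed, where 0.0411% of all genes did, as the plot of pathway genes shows.

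**Figure D4:**
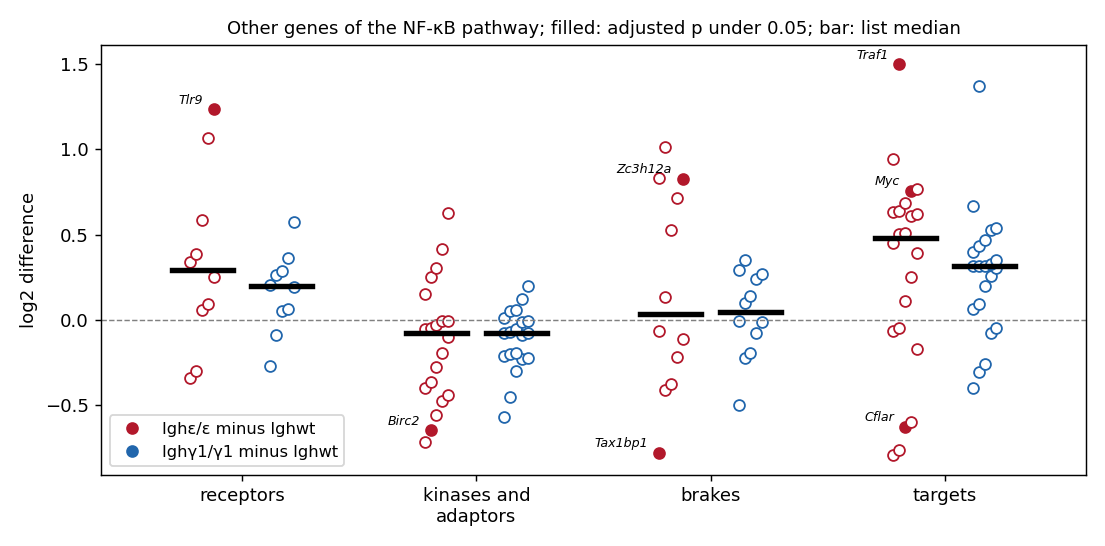
Log2 differences (y axis) of the genes tested in 4 lists of the NF-κB pathway, for Ighε/ε minus Ighwt in red and Ighγ1/γ1 minus Ighwt in blue. Filled and named points passed an adjusted p under 0.05 in limma, and bars are list medians: in Ighε/ε the target list has its median at 0.48 and the kinases and adaptors at -0.08.

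The pattern of Nfkb2, the gene of the 9 with the smallest F test p, was set against all other genes tested over the 9 arrays. Those with the highest Pearson's r were Foxj2 (0.970), Tmem123 (0.970), Syk (0.967), Zfp142 (0.963) and Sh2b3 (0.963), a description in which the points share 9 arrays and 3 genotypes. Their mean log2 signals in Ighε/ε, Ighγ1/γ1 and Ighwt cells stepped down in the same order as those of Nfkb2, for Foxj2 7.70, 6.92 and 6.37, and for Sh2b3, which encodes an adaptor that restrains cytokine signalling, 5.90, 5.35 and 4.97. The choice by r largely fixed this order, which 21% of all genes tested had.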

How the data were processed

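Log2 signals of 41345 probe sets on 9 single-colour arrays were used as the authors deposited them. Per the labels' protocols, cDNA amplified from 54 to 360 ng of total RNA was labelled with biotin. The submitters' processing notes name R 3.3.1, and how background was corrected and arrays normalized is not given in the sources. The range of the values, alike on all arrays, marks the unit as log2, and 0 pairs of arrays were identical. The number of arrays limits the precision.

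The platform annotation gave 23521 probe sets 1 symbol, 1814 several and 16010 none here. Symbols were updated by gene identifier (23328 matched) to the GRCm38.p6 gene table. Genes were tested when above the array median on at least 3 of the 9 arrays, which set aside 10010. One limma 3.58.1 fit (R 4.3.3, lmFit and eBayes) held a mean per genotype and no covariate, with 6 residual degrees of freedom. P-values were Benjamini-Hochberg adjusted over the 12170 genes, with a threshold of 0.05. The fit was tested on simulated data.

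The NF-κB genes, the pathway and marker lists and the alternatives were chosen with earlier results of these data known. All 10 NF-κB genes were to be named, with up to 6 genes a pathway list and contrast that passed, by size of difference, or, where fewer than 2 passed in Ighε/ε, the 2 with the smallest p, and the 5 genes most like the NF-κB gene with the smallest F test p. Tnfrsf13c, Cd40, Ikbkb, Map3k14 and Tnfaip3 were added after their values were seen. Matplotlib 3.10.9 under Python 3.11.15 drew the figures.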

Additional observations from a re-analysis of the deposited data

How the results depend on the processing

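The count of NF-κB genes past the threshold between Ighε/ε and Ighwt was 4 in the main fit, where 6.34% of all genes passed. It was 2 with no filter, with the replicate number as a block and with a low Xist covariate. There 2.72%, 5.49% and 5.88% of all genes passed. It was 1 with only the 6 arrays compared or only the 7 with high Xist, where 3.48% and 4.63% of all genes passed. With single arrays left out it was 1 to 4, where 1.53% to 6.48% of all genes passed. The other settings left it at 3 to 5: quantile normalization, median centring, the filter at percentile 75 (which drops Bcl3), the mean of probe sets, array weights, a variance with trend and robust fit, an adjusted p under 0.1 and a log2 difference of at least 1. The F test count of 1 was 2 under quantile normalization, median centring or the trended and robust variance, 0 with only the arrays of high Xist, 4 at an adjusted p under 0.1, and 0 to 2 with single arrays left out. In Ighγ1/γ1 against Ighwt and in Ighε/ε against Ighγ1/γ1 the count was 0 in all settings run. Of the differences, those of Rela between Ighγ1/γ1 and Ighwt turned to -0.00221 without Ighγ1/γ1 replicate 2 and -0.0323 without Ighwt replicate 2, in a range of -0.0323 to 0.481 over arrays left out, and that of Relb to -0.0222 without Ighwt replicate 2, in a range of -0.0222 to 0.168. No other difference of the 9 genes or of the pathway genes in the same tests, which were chosen after seeing the data, changed sign. The cause was not tested.

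Over all genes 772 passed between Ighε/ε and Ighwt, 283 higher and 489 lower (36.7% higher). Of 710 under quantile normalization 57.7% were higher, and of 710 under median centring 45.6%. Between Ighε/ε and Ighγ1/γ1 the share was 38.3% of 324, and 53.4% of 380 and 54.5% of 277 in those settings. All genes called between Ighε/ε and Ighwt numbered 424 with the 6 arrays, and 186 to 789 with single arrays left out. The deviations of same-numbered arrays correlated at -0.09 to 0.16, and those of other-numbered arrays at -0.07 to 0.08. The highest was between Ighε/ε and Ighγ1/γ1 replicates 2. The main fit took no pairing, and these ranges do not settle whether shared replicate numbers pair samples. With the block, Nfkbia, Nfkbie, Tlr9, Birc2, Zc3h12a and Myc were not past the threshold against Ighwt (adjusted p = 0.0685, 0.0676, 0.0579, 0.0729, 0.0812 and 0.0579), nor Cflar against Ighγ1/γ1 (0.0861).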
